A study of Homo sapiens with 12 samples.

Results

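The 10 genes described here encode Hsp70 family chaperones that work in the cytosol and nucleus or close to them: HSPA8, HSPA1A, HSPA1B, HSPA6, HSPA1L, HSPA2, HSPA4, HSPA4L, HSPA14 and HSPA13. They were chosen by symbol, with earlier results of these data known, from a table of 23686 gene symbols, and all 10 were found there. HSPA1A and HSPA1B encode almost the same messenger RNA, so they were also read as their sum. The label of a cytosolic family fits 9 of the 10 by what is known of their products; HSPA13, also called STCH, is known as a microsome-associated member. HSPA4 and HSPA4L belong to the larger Hsp110 branch, and HSPA14 to a ribosome-associated complex.

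RNA was sequenced from MDA-MB-231, an established breast cancer line, and HCT116, an established colon cancer line. Each line had 3 groups of 2 libraries, 12 libraries in all: control IgG without H2O2, control IgG with 100 µM H2O2, and an antibody named anti-Hsp60N with 100 µM H2O2. Exposure to H2O2, an oxidant, lasted 8 h. No group received the antibody without H2O2, so its effect was measured on H2O2-exposed cells alone. All groups grew in 10% fetal bovine serum, but the lines had different media, so line and medium cannot be told apart. The target of the antibody, by its name, is Hsp60, the mitochondrial chaperonin. The labels do not state whether the 2 libraries of a group were grown separately, so every p-value reflects the spread of these libraries and possibly no more than technical error.

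Hsp70 proteins bind exposed hydrophobic stretches of unfolded or newly made proteins in a cycle driven by ATP. J-domain proteins bring the client and start ATP hydrolysis, which closes Hsp70 on it, and nucleotide exchange factors open it again. HSPA8 (Hsc70) is the abundant constitutive member, whereas HSPA1A, HSPA1B and HSPA6 are the classic stress-inducible members, switched on by heat shock factor HSF1 at repeated GAA units upstream of their start sites.

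The starts of the genes that carry the main results are shown first, because HSPA1A, HSPA1B and HSPA8 fell together in HCT116, HSPA6 was below 1 TPM in all but the exposed MDA-MB-231 libraries, and HSPA13 rose in HCT116. Each line holds the 250 bases upstream of the annotated first base, 5′ to 3′ on the gene's own strand, and capitals mark every pair of heat shock units (GAANNTTC or TTCNNGAA, which are their own reverse complements and can overlap). The sequences and positions are RefSeq's on GRCh38.p14, which is not the hg19 build named for the deposited values. The windows are chr11:123062137-123062386 (minus strand) for HSPA8, chr6:31815293-31815542 (plus) for HSPA1A, chr6:31827488-31827737 (plus) for HSPA1B, chr1:161524290-161524539 (plus) for HSPA6 and chr21:14383147-14383396 (minus) for HSPA13.
HSPA8: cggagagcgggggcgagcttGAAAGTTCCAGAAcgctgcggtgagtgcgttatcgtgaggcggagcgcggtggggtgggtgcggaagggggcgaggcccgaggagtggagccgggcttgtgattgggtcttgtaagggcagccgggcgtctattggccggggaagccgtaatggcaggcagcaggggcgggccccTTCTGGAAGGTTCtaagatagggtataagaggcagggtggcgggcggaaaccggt
HSPA1A: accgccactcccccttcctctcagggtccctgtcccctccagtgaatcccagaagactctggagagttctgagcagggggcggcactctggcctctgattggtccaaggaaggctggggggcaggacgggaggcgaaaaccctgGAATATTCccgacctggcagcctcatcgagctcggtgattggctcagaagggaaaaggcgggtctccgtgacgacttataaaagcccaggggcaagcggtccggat
HSPA1B: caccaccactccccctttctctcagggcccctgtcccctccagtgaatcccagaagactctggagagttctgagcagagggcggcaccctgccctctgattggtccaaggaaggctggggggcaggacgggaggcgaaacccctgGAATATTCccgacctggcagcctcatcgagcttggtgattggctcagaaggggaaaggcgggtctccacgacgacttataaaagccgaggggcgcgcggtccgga
HSPA6: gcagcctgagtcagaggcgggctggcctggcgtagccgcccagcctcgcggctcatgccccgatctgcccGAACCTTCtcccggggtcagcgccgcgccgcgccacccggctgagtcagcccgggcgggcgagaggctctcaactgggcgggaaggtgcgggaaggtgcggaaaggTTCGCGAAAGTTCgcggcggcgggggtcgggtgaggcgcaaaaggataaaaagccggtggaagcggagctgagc
HSPA13: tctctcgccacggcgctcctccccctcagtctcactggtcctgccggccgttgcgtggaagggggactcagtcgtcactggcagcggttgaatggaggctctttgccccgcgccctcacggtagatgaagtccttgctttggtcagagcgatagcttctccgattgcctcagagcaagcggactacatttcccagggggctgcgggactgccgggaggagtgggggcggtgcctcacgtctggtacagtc

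HSPA8 held 2 matches to the longer motif of 3 units (GAANNTTCNNGAA or TTCNNGAANNTTC), at bases -230 to -218 and -55 to -43 from the first base of the gene. HSPA6 held 1 such match, at -74 to -62, and a separate pair at -180 to -173. HSPA1A and HSPA1B each held a single exact pair, at -106 to -99 and -105 to -98, and HSPA13 held none. Among 35116 RefSeq start windows of 300 bases (250 upstream and 50 downstream), 13.5% held either pair and 0.49% the longer motif. Of the 11 windows of these genes, 6 held a pair and 2 the longer motif. The windows cover 9 of the 10 genes, with several starts for HSPA4L and none for HSPA14. HSPA1L points away from HSPA1A, their first bases lie 260 bases apart, and both windows include the same GAANNTTC pair. These matches are descriptions of letters and are not measured binding.

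The CCAAT box, searched on both strands, was in 34.6% of all windows and in 6 of the 11. HSPA8, HSPA1A, HSPA1B and HSPA1L each had 2 copies, and HSPA6, HSPA4 and HSPA13 had none.

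HSPA1A and HSPA1B differed at 4 of 1926 coding bases in the GENCODE 29 reference transcripts (99.8% identity), with a shared stretch of 1709 bases. Their 3′ untranslated sequences were 47.8% identical over the alignment, with no shared stretch above 10 bases, and the upstream windows printed here were 93.6% identical. Reads from the coding part therefore cannot be assigned to either gene with certainty. The next closest coding sequences to HSPA1A were HSPA1L (81.1%), HSPA6 (80.5%) and HSPA2 (80.0%), followed by HSPA8 (73.7%). HSPA4 and HSPA4L were 64.6% identical to each other and 44.7% and 42.4% identical to HSPA1A.

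The deposited values are TPM, relative transcript abundances scaled to transcript length and to the library total, so levels can be set beside each other across genes. TPM keeps no read depth, so the depth of each library is unknown. Each library listed between 12411 and 12653 genes at 1 TPM or more, and the 2 libraries of a group correlated at 0.994 to 0.996 (Pearson, across the genes kept, on log2(TPM + 1)). Some markers separated the lines widely. VIM, a mesenchymal filament gene, was at 2233 to 2551 TPM in MDA-MB-231 and at 5.06 to 5.81 TPM in HCT116. The epithelial gene RAB25 was at 0 to 0.10 and 122 to 142 TPM. Others separated them less: CAV1 was at 357 to 498.5 and 287 to 318 TPM, and CD44 at 694 to 775 and 205 to 251 TPM. The epithelial gene EPCAM was at 22.6 to 25.3 and 332 to 370 TPM. Of 8 markers of immune, endothelial and fibroblast cells, 3 reached 1 TPM in MDA-MB-231 (CD68, PECAM1 and COL1A1) and 2 in HCT116 (CD68 and COL1A1), with summed levels of 191 to 211 and 26.3 to 31.7 TPM. PTPRC and CD3E stayed at 0 to 0.08 TPM and DCN at 0 in every library. These are levels in established lines and do not show that such cells were present, which was not tested.

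Tests used limma on log2(TPM + 1), fitted over all 12 libraries and the 13956 genes that reached 1 TPM in 2 or more of them. A gene was called at a Benjamini-Hochberg adjusted p under 0.05 over all those genes. All 10 genes passed the filter, but HSPA6 passed only through the 4 H2O2-exposed libraries of MDA-MB-231. A gene kept that way had to differ from its IgG group, so HSPA6 is described apart and the counts of comparisons with IgG and between lines cover the other 9. Fold changes are on the log2(TPM + 1) scale and understate the change of low genes. In bulk RNA, fewer cells of a type and less RNA per cell cannot be told apart. The 3 comparisons within a line share libraries, so their values stand side by side and are not independent of each other.

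Under H2O2 the inducible genes HSPA1A and HSPA1B rose in one line and fell in the other. In MDA-MB-231, HSPA1A and HSPA1B rose and 0 of the 9 genes fell, where 1.3% of all genes tested were called higher and 1.36% lower. In HCT116, 7 genes fell (HSPA1A, HSPA1B, HSPA8, HSPA2, HSPA4, HSPA4L and, in a call that single libraries end, HSPA14), where 17.5% of all genes were called lower. HSPA13 was the 1 gene of the 9 that rose there, where 15.4% were called higher. Adding anti-Hsp60N to H2O2 gave no call in either line. Before any H2O2, HCT116 already held 4.27 times the HSPA1A plus HSPA1B level of MDA-MB-231 and 2.03 times its HSPA8 level.

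**Figure D1:**
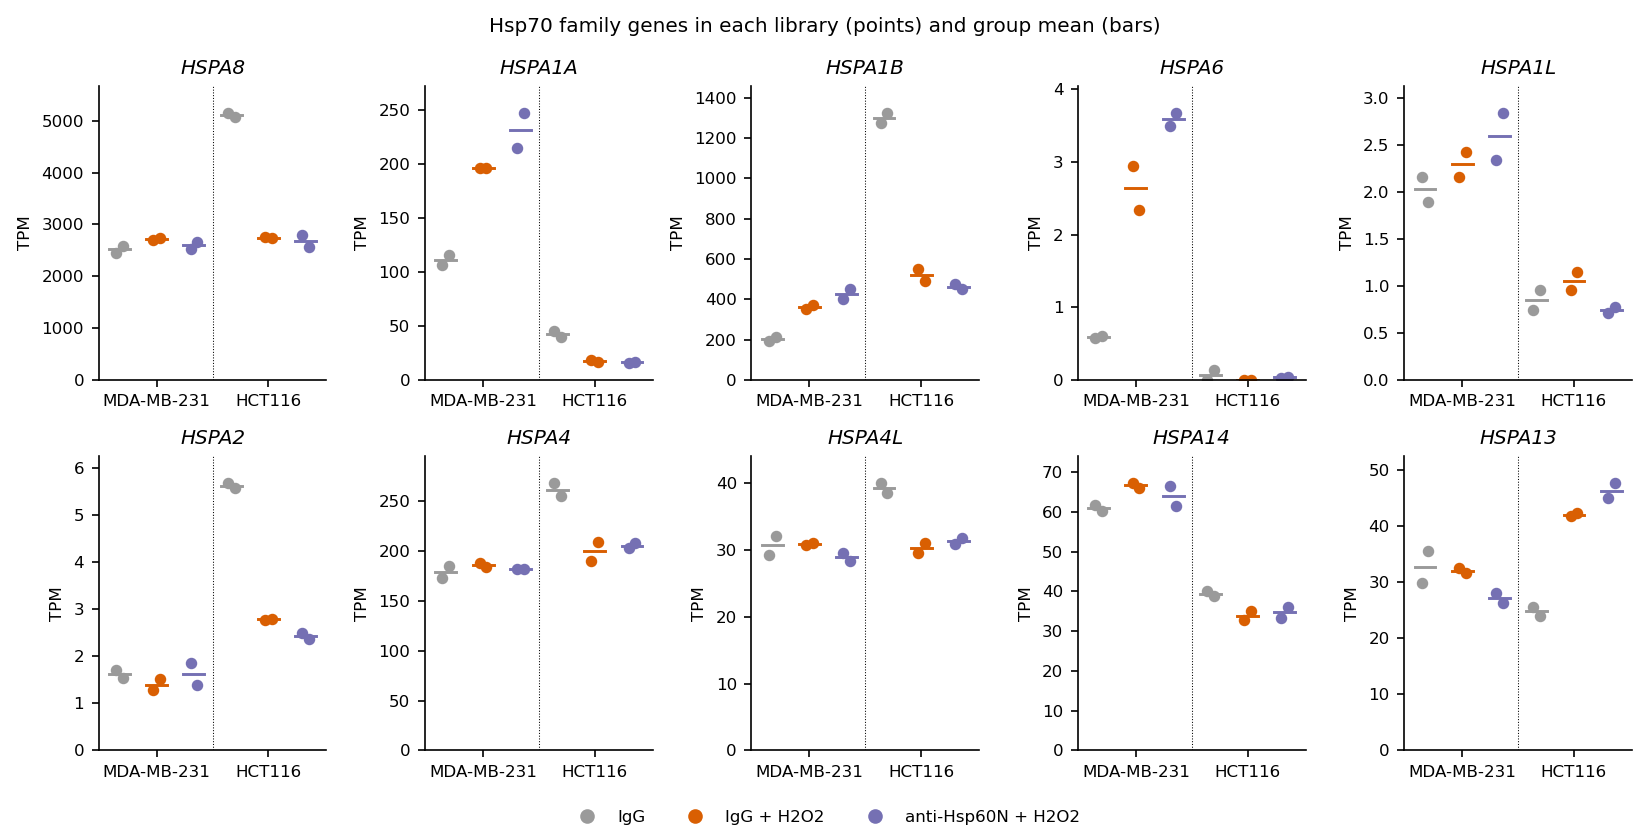
TPM (linear y axis from 0, its own range per gene) of the 10 Hsp70 genes in 12 libraries, with MDA-MB-231 left and HCT116 right of the dotted line in each panel; points are libraries, bars are means of 2 libraries, and colours are IgG, IgG with H2O2 and anti-Hsp60N with H2O2. In HCT116 the IgG libraries of HSPA8, HSPA1A, HSPA1B and HSPA2 stand above all H2O2 libraries, and those of HSPA13 stand below.

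The constitutive gene HSPA8 was the highest of the 10 in all 12 libraries. Under IgG it stood at 2450 and 2588 TPM in MDA-MB-231 and at 5155 and 5077 TPM in HCT116. With IgG and H2O2 the levels were 2694 and 2741 TPM in MDA-MB-231 and 2760 and 2732 TPM in HCT116. With anti-Hsp60N and H2O2 they were 2521 and 2668 TPM and 2792 and 2558 TPM. Only the 2 HCT116 libraries without H2O2 stood apart, and the 4 exposed HCT116 libraries fell into the range of MDA-MB-231 or slightly above it.

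In HCT116 the mean level of HSPA8 fell under H2O2 to 0.537 times that under IgG, from 5116 ± 55.4 to 2746 ± 19.9 TPM (SD, n = 2 each). The log2 fold change was -0.90 (SE 0.05, limma adjusted p 6.44e-07). In MDA-MB-231 the change was 0.11 (SE 0.05, limma adjusted p 0.299) and was not called. The libraries of IgG with H2O2 lay above the IgG libraries, but those with antibody and H2O2 overlapped them. HSPA14 and HSPA2, also not called there, stood apart under IgG with H2O2 too, HSPA2 downward. The difference between the lines was itself tested and came to -1.01 (SE 0.07, limma adjusted p 1.08e-05).

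The stress-inducible genes HSPA1A and HSPA1B gave a summed level of 299.8 and 329 TPM under IgG in MDA-MB-231. The sum was 549 and 569 TPM with H2O2, and 616 and 699 TPM with antibody and H2O2. In HCT116 the sum was 1322 and 1366 TPM under IgG, 570 and 507 TPM with H2O2, and 490.2 and 466 TPM with antibody and H2O2. The groups with and without H2O2 did not overlap in either line. The lines stood 4.27 times apart under IgG but overlapped under IgG with H2O2, and with the antibody MDA-MB-231 stood above HCT116.

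Under H2O2 the sum rose to 1.78 times its IgG level in MDA-MB-231 (log2 fold change 0.83, 95% interval 0.67 to 0.99, limma adjusted p 0.000217). It fell to 0.400 times its IgG level in HCT116 (log2 fold change -1.32, 95% interval -1.48 to -1.16, limma adjusted p 6.36e-07). The tested difference between these changes was -2.15 on the log2 scale (SE 0.10, limma adjusted p 7.87e-07).

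Read singly, HSPA1A stood at 107 and 116 TPM under IgG, 196.0 and 196.0 TPM with H2O2, and 215 and 247 TPM with antibody and H2O2 in MDA-MB-231. In HCT116 it stood at 45.2 and 39.9, at 18.8 and 17.0, and at 15.5 and 17.0 TPM in the same order. HSPA1A thus moved the same way as the sum in each line, but from a lower level in HCT116 than in MDA-MB-231. Its log2 fold change under H2O2 was 0.81 in MDA-MB-231 (limma adjusted p 0.000685) and -1.20 in HCT116 (limma adjusted p 4.28e-06).

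HSPA1B stood at 193 and 213 TPM under IgG, 353 and 373 TPM with H2O2, and 401 and 452 TPM with antibody and H2O2 in MDA-MB-231. In HCT116 it stood at 1277 and 1326, at 551 and 489.6, and at 475 and 449 TPM. It made up most of the pair's level in every library, and in HCT116 nearly all of it. Its log2 fold change under H2O2 was 0.84 in MDA-MB-231 (limma adjusted p 0.000232) and -1.32 in HCT116 (limma adjusted p 7.50e-07).

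The split between the pair differed by line and hardly by treatment. HSPA1A took 34.4% to 35.7% of the summed TPM in the 6 MDA-MB-231 libraries and 2.92% to 3.64% in the 6 HCT116 libraries. Under IgG, HSPA1B was 6.41 times as high in HCT116 as in MDA-MB-231, while HSPA1A was 0.382 times as high. The split depends on how reads from the shared coding sequence were assigned, which the deposited values do not show, so the single-gene levels are uncertain, while the sum does not depend on the split.

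**Figure D2:**
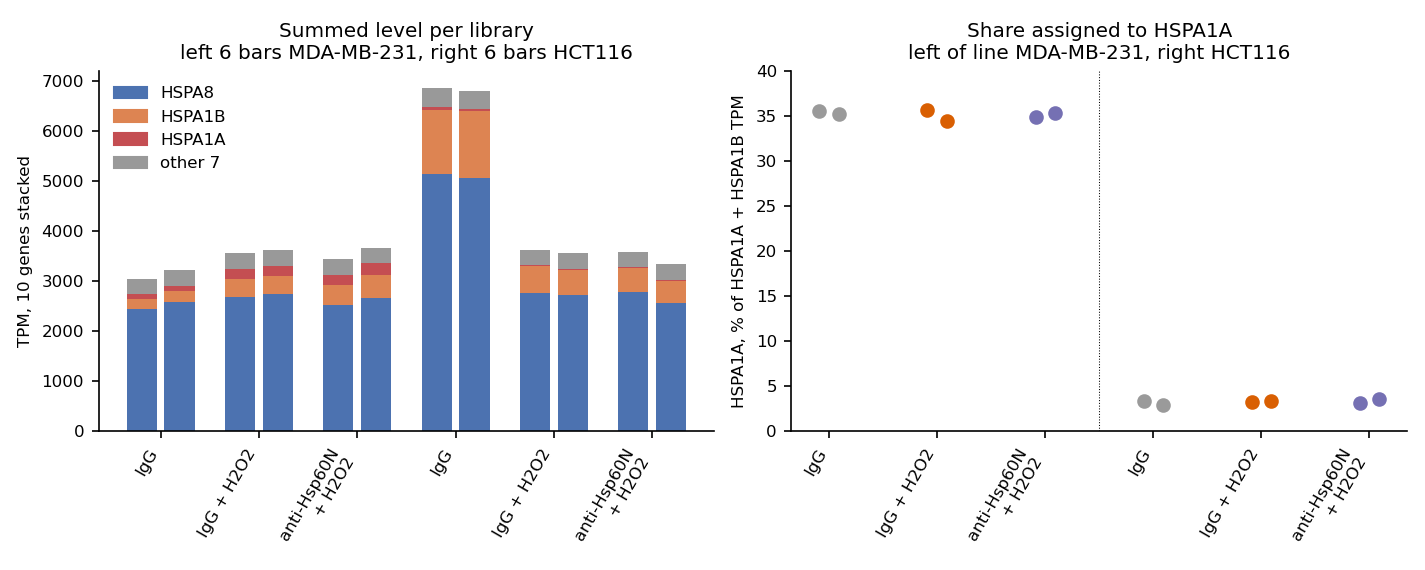
Left, TPM of the 10 genes stacked per library (y axis from 0; HSPA8, HSPA1B, HSPA1A and the other 7 genes), 6 bars per line in pairs by treatment; right, the percentage of HSPA1A plus HSPA1B TPM assigned to HSPA1A, one point per library. The 2 HCT116 libraries under IgG reach 6857 and 6806 TPM against 3048 to 3673 TPM in the other 10, and the HSPA1A share is near 35% in MDA-MB-231 and near 3% in HCT116 under every treatment.

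HSPA6 (Hsp70B′), which is known to be nearly silent until strong stress, was listed at 0.58 and 0.61 TPM under IgG in MDA-MB-231. With H2O2 it was at 2.94 and 2.34 TPM, and with antibody and H2O2 at 3.50 and 3.68 TPM. The 3 groups of MDA-MB-231 did not overlap, although all levels were low. The mean under H2O2 was 4.44 times that under IgG, a log2 fold change of 1.19. Since the filter kept HSPA6 only through its exposed libraries, its p is given from the fit without that filter (19181 genes), where limma's adjusted p was 0.000569. In HCT116 it was listed at 0 and 0.13 TPM under IgG, 0 and 0 with H2O2, and 0.03 and 0.04 TPM with antibody and H2O2, so no fold is given there. HSPA7, a pseudogene close to HSPA6 in sequence, was at 0 to 0.05 TPM in every library.

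HSPA1L and HSPA2 are related genes known for high expression in the testis. HSPA1L was at 2.16 and 1.89, 2.16 and 2.42, and 2.34 and 2.84 TPM in MDA-MB-231 under IgG, H2O2, and antibody with H2O2. In HCT116 it was at 0.74 and 0.96, 0.96 and 1.15, and 0.71 and 0.78 TPM. The groups under IgG and IgG with H2O2 met at a shared value in each line, and HSPA1L was not called in any comparison of treatments. Its H2O2 change was 0.12 in MDA-MB-231 (95% interval -0.13 to 0.37) and 0.15 in HCT116 (95% interval -0.09 to 0.40).

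HSPA2 was at 5.68 and 5.57 TPM under IgG in HCT116, 2.78 and 2.80 TPM with H2O2, and 2.49 and 2.36 TPM with antibody and H2O2. In MDA-MB-231 it was at 1.71 and 1.55, 1.29 and 1.51, and 1.86 and 1.4 TPM. It fell in HCT116, where the IgG libraries stood well clear of the others, to 0.496 times the IgG level under H2O2 (log2 fold change -0.81, SE 0.10, limma adjusted p 0.000270). In MDA-MB-231 the value was -0.13 (limma adjusted p 0.575).

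HSPA4 and HSPA4L are Hsp110-type proteins that act as nucleotide exchange factors for Hsp70. HSPA4 stood at 268 and 255 TPM under IgG in HCT116, 190.1 and 209 TPM with H2O2, and 203 and 208 TPM with antibody and H2O2. In MDA-MB-231 its 6 libraries spanned 173 to 188 TPM, and the IgG range overlapped both other groups. HSPA4 fell under H2O2 in HCT116 to 0.764 times its IgG level (log2 fold change -0.39, SE 0.05, limma adjusted p 0.000502) and had a value of 0.06 in MDA-MB-231 (limma adjusted p 0.680).

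HSPA4L stood at 39.99 and 38.6, 29.6 and 31.1, and 31.0 and 31.8 TPM in HCT116, and at 28.3 to 32.1 TPM across MDA-MB-231. The IgG libraries of HCT116 were thus the highest of the 12, and the exposed ones lay within the range of the other line. Its log2 fold change under H2O2 in HCT116 was -0.36 (SE 0.06, limma adjusted p 0.00120), and 0.01 in MDA-MB-231 (limma adjusted p 0.981).

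HSPA14, which binds ribosomes as part of the complex that assists new protein chains, was at 39.99 and 38.8, 32.7 and 35.1, and 33.3 and 36.1 TPM in HCT116. It was at 61.8 and 60.3, 67.2 and 66.1, and 66.6 and 61.4 TPM in MDA-MB-231. The shift in HCT116 was the smallest one called, with no overlap between IgG and H2O2 libraries. Its log2 fold change was -0.21 (SE 0.06, limma adjusted p 0.0218), against 0.12 in MDA-MB-231 (limma adjusted p 0.338). The HCT116 call was lost without replicate 1 of HCT116 under IgG (limma adjusted p 0.0869), without replicate 1 of HCT116 under IgG with H2O2 (0.140) and with HCT116 fitted alone (0.0714).

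HSPA13 encodes a short Hsp70 that lacks the usual peptide-binding part and is found with microsomes. It was at 25.6 and 23.9 TPM under IgG in HCT116, 41.7 and 42.2 TPM with H2O2, and 45.0 and 47.6 TPM with antibody and H2O2. In MDA-MB-231 it was at 29.9 and 35.5, 32.4 and 31.6, and 28.1 and 26.2 TPM. The 4 exposed HCT116 libraries were the highest of the 12, and the 2 HCT116 libraries under IgG the lowest. HSPA13 rose under H2O2 in HCT116 to 1.70 times its IgG level (log2 fold change 0.74, 95% interval 0.57 to 0.91, limma adjusted p 8.47e-05), and its value in MDA-MB-231 was -0.02 (limma adjusted p 0.942).

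Counted over the 9 genes other than HSPA6, H2O2 against IgG called 2 higher in MDA-MB-231, and 1 higher and 7 lower in HCT116. The 2 in MDA-MB-231 are the near-identical pair HSPA1A and HSPA1B, which also gives 2 of the 7 in HCT116. Here and in the other counts and medians the pair is taken as 2 genes, but read as its sum it is 1 result in each line. The median log2 change of the 9 was 0.11 in MDA-MB-231, beside 0.03 over all genes, and -0.39 in HCT116, beside -0.01. In MDA-MB-231 the balance of calls over all genes, 181 higher and 190 lower, became 154 and 279 with median-of-ratios scaling and 157 and 242 with quantile normalization. HSPA1A and HSPA1B were called higher there under both scalings.

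**Figure D3:**
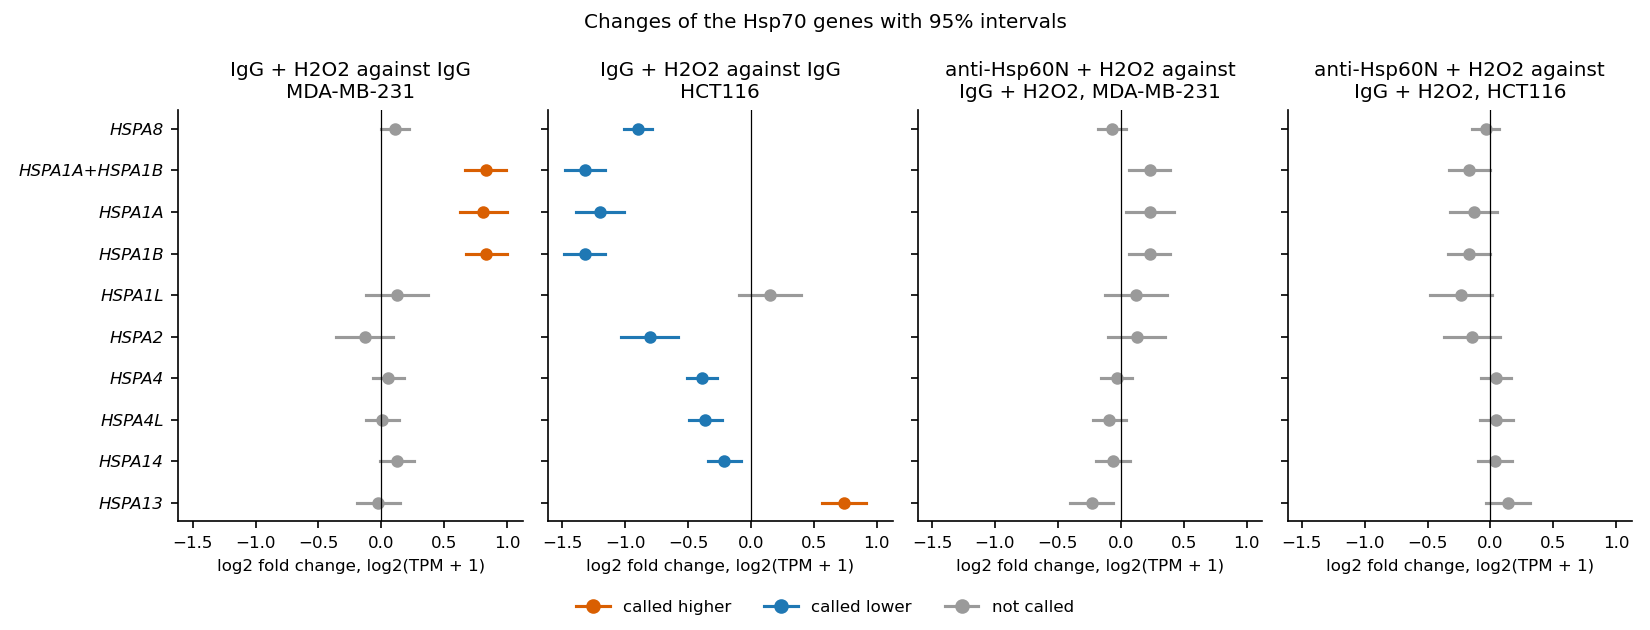
Log2 fold change on the log2(TPM + 1) scale (x axis) of each Hsp70 gene other than HSPA6 and of HSPA1A plus HSPA1B, with 95% intervals from limma, for H2O2 against IgG and for the antibody added to H2O2, in each line; colours mark calls at an adjusted p under 0.05. H2O2 gives 2 genes called higher in MDA-MB-231 and 7 lower with 1 higher in HCT116, while the 2 antibody panels hold no call.

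The difference between the lines in the H2O2 change was called for 8 of the 9 genes, 7 with a lower change in HCT116 and HSPA13 with a higher one. Over all genes 9.72% were called lower and 7.65% higher in this test. That balance, 1356 lower and 1067 higher, became 1178 and 1249 with median-of-ratios scaling and 1139 and 1194 with quantile normalization, and the calls of the 9 were the same. Among the 9 the difference was largest for HSPA1B (-2.16) and HSPA1A (-2.01). HSPA8 differed by -1.01, HSPA2 by -0.67 and HSPA4 by -0.44 (limma adjusted p 0.00426). HSPA1L was the gene not called, at 0.03 (95% interval -0.32 to 0.38).

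The smaller differences were less stable. HSPA4L differed by -0.37 (limma adjusted p 0.0143), which was lost without replicate 1 of HCT116 under IgG with H2O2 (0.0523) or replicate 2 of MDA-MB-231 under IgG with H2O2 (0.0546). HSPA14 differed by -0.34 (limma adjusted p 0.0238), which was lost in 5 of 12 fits with 1 library left out. Those 5 left out replicate 1 of HCT116 under IgG (limma adjusted p 0.0529) or under IgG with H2O2 (0.0808), replicate 2 of MDA-MB-231 under IgG (0.0618), and replicate 1 (0.0792) or 2 (0.0668) of MDA-MB-231 under IgG with H2O2.

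Adding anti-Hsp60N to H2O2 changed none of the 10 genes past the threshold in either line by limma. In MDA-MB-231, 0.0143% of all genes were called higher and 0% lower, so few genes of any kind were called. Without adjustment, 4 of the 10 had p under 0.05, beside 13.1% of all genes: HSPA1A, HSPA1B and HSPA6 with higher values and HSPA13 with a lower one. The sum of HSPA1A and HSPA1B had a log2 change of 0.23 (95% interval 0.07 to 0.39, limma adjusted p 0.286), HSPA6 one of 0.34 (95% interval 0.10 to 0.58, limma adjusted p 0.286) and HSPA13 one of -0.23 (95% interval -0.40 to -0.06, limma adjusted p 0.298). For these genes the antibody libraries lay outside the range of the IgG with H2O2 libraries, but the changes did not pass the correction. The same lack of overlap held for HSPA4, HSPA4L and HSPA8, whose unadjusted limma p was above 0.05. Between groups of 2 libraries it therefore says little.

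In HCT116, 0.00717% of all genes were called higher and 0.0143% lower on adding the antibody, and again none of the 10. Without adjustment 1 of the 10, HSPA1B, had p under 0.05, beside 5.16% of all genes. The sum changed by -0.17 (95% interval -0.33 to -0.01, limma adjusted p 0.920) and HSPA8 by -0.04 (95% interval -0.15 to 0.07, limma adjusted p 0.951). The interval for HSPA8 excludes a change as large as the one under H2O2 (-0.90).

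The antibody change was not called as different between the lines for any of the 10 genes by limma, where 0.0143% of all genes were called higher and 0.0143% lower. Without adjustment 4 of the 10 had p under 0.05 (HSPA13, HSPA1A, HSPA1B and HSPA1L), beside 12.5% of all genes. For the sum the difference was -0.40 (95% interval -0.63 to -0.17, limma adjusted p 0.348).

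Anti-Hsp60N with H2O2 against IgG called the same of the 9 genes as H2O2 alone, with which it shares the IgG libraries. In MDA-MB-231 it called HSPA1A (1.05) and HSPA1B (1.06) higher and 0 lower, where 1.5% of all genes were called higher and 1.9% lower. In HCT116 it called HSPA13 higher (0.88), where 16.8% of all genes were. It called 7 lower there, where 17.5% were: HSPA1B (-1.49), HSPA1A (-1.34), HSPA2 (-0.95), HSPA8 (-0.94), HSPA4 (-0.35), HSPA4L (-0.32) and HSPA14 (-0.18). The sum of HSPA1A and HSPA1B was at 2.09 times its IgG level in MDA-MB-231 (limma adjusted p 2.53e-05) and at 0.356 times in HCT116 (limma adjusted p 2.46e-07). HSPA13 in MDA-MB-231 had a value of -0.25 (limma adjusted p 0.113) and was called lower only without replicate 1 of MDA-MB-231 under IgG.

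The HSPA14 call in this comparison was lost with HCT116 fitted alone (limma adjusted p 0.10), without a filter on low values (0.0523) and in 7 of 12 fits with 1 library left out. Of HCT116 these left out replicate 1 with antibody and H2O2 (limma adjusted p 0.265) and replicate 1 (0.144) or 2 (0.0784) under IgG. Of MDA-MB-231 they left out replicate 1 (0.0522) or 2 (0.0521) under IgG and replicate 1 (0.0641) or 2 (0.0640) under IgG with H2O2.

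Before H2O2, the family differed strongly between the lines. Under IgG, HCT116 had higher HSPA1B (log2 difference 2.67), HSPA2 (1.33), HSPA8 (1.02), HSPA4 (0.54) and HSPA4L (0.35), where 45.5% of all genes were called higher. It had lower HSPA1A (-1.37), HSPA1L (-0.71), HSPA14 (-0.62) and HSPA13 (-0.38), where 37.3% were called lower. HSPA1L was below 1 TPM in HCT116 under IgG and passed the filter through MDA-MB-231, so its call between the lines supports nothing on its own. HSPA6 was below 1 TPM in both lines under IgG. Most genes of any kind were called in this comparison, so the count of the 9 says little about the set. The median over all genes was 0.11 with the deposited scaling and -0.01 with median-of-ratios scaling, and the calls of the 9 were the same under both.

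The order of levels was alike at the top and differed below. Under IgG in MDA-MB-231 the order of means was HSPA8, HSPA1B, HSPA4, HSPA1A, HSPA14, HSPA13, HSPA4L, HSPA1L, HSPA2 and HSPA6, and only the ranges of HSPA13 and HSPA4L met. In HCT116 under IgG it was HSPA8, HSPA1B, HSPA4, HSPA1A, HSPA14, HSPA4L, HSPA13, HSPA2, HSPA1L and HSPA6, and the ranges of HSPA1A, HSPA14 and HSPA4L met in turn. With H2O2 in HCT116, HSPA13 stood directly below HSPA4, and HSPA1A stood below HSPA4L. With H2O2 in MDA-MB-231, HSPA1A stood above HSPA4.

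Summed over the 10 genes, the family made up 0.686% and 0.681% of all TPM in HCT116 under IgG and 0.335% to 0.363% in its exposed libraries. In MDA-MB-231 it made up 0.305% and 0.323% under IgG and 0.345% to 0.367% with H2O2. The exposed libraries of the 2 lines thus overlapped in total, although HSPA1A plus HSPA1B took 9.84% and 10.2% of the family in MDA-MB-231 under IgG, 15.4% to 19.0% with H2O2, 19.3% and 20.1% in HCT116 under IgG and 13.6% to 15.7% with H2O2. HSPA8 accounted for 72.6% to 80.4% of the family in every library.

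Other genes of the Hsp70 system were read from 5 lists of 31 genes, of which 30 were tested and HSPA12B did not pass the filter. The lists were J-domain proteins, exchange factors, adaptors and Hsp90, heat shock factors, and further Hsp70 genes. Not all of them are thus partners of the cytosolic Hsp70 cycle. H2O2 in HCT116 called 15 of the 30 lower and 3 higher, where 17.5% of all genes were called lower and 15.4% higher, with a median log2 change of -0.22 beside -0.01 over all genes. In MDA-MB-231 limma called 0 of the 30 in either direction, where 1.3% of all genes were called higher and 1.36% lower. The median there was 0.06 beside 0.03. Most calls among the listed genes in HCT116 thus had the direction of HSPA8 and of HSPA1A plus HSPA1B. In MDA-MB-231 so few genes of any kind were called that 0 of 30 does not set the listed genes apart. DNAJA4, a J-domain gene, was listed at only 0.07 to 0.23 TPM there. Its lack of a call in that line therefore says nothing.

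The lists are small, and the shares of 17.5% lower and 15.4% higher over all genes stand beside each count. Of 8 J-domain genes, 4 fell and 1 rose under H2O2 in HCT116. DNAJA1, a main partner of HSPA8, went from 719.95 ± 35.4 to 451 ± 8.85 TPM (SD, n = 2 each) with a log2 change of -0.67, and DNAJB1 (Hsp40) from 357 ± 1.25 to 237 ± 8.50 TPM (-0.59). Among 6 exchange factors 3 fell, among them HSPH1 (Hsp110), from 257 ± 6.03 to 159 ± 3.995 TPM (-0.69), and BAG3 (-0.60), which links Hsp70 to autophagy. Of 9 adaptor and Hsp90 genes 8 fell, and those of smallest p were STIP1 (HOP), the bridge between Hsp70 and Hsp90, at -0.54, and FKBP4 at -0.49.

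The heat shock factor genes HSF1 and HSF2 and their binder HSBP1 were not called by H2O2 in either line. With antibody and H2O2 against IgG, HSF1 was called lower in HCT116 (-0.26, limma adjusted p 0.0178). Of the 4 further Hsp70 genes tested, 2 rose under H2O2 in HCT116. They were HSPA5 (BiP) of the endoplasmic reticulum, from 559 ± 27.5 to 811 ± 15.5 TPM (0.54), and the mitochondrial HSPA9 (mortalin), from 502 ± 26.4 to 580.4 ± 32.9 TPM (0.21). HYOU1, also of the endoplasmic reticulum, was not called (0.13, limma adjusted p 0.0835), and neither was HSPA12A (-0.19, limma adjusted p 0.0635). With antibody and H2O2 against IgG, HSPA12A was called lower in HCT116 (-0.21, limma adjusted p 0.0496). The tested difference between the lines was called lower for 16 of the 30, where 9.72% of all genes were, and higher for 1, HSPA5, where 7.65% were.

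With antibody and H2O2 against IgG, 20 of the 30 were called lower and 3 higher in HCT116, where 17.5% and 16.8% of all genes were. In MDA-MB-231, where 1.5% of all genes were called higher, 1 of the 30 was, the J-domain gene DNAJB2 (0.40, limma adjusted p 0.00646). On adding the antibody to H2O2, limma called 0 of the 30 in each line. Under IgG, 22 of the 30 were higher and 4 lower in HCT116 than in MDA-MB-231, where 45.5% and 37.3% of all genes were. The 22 include DNAJA4, which no MDA-MB-231 library listed above 0.23 TPM. Only its HCT116 libraries, all at 65.35 TPM or more, took it past the filter. Its call between the lines thus supports nothing on its own.

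**Figure D4:**
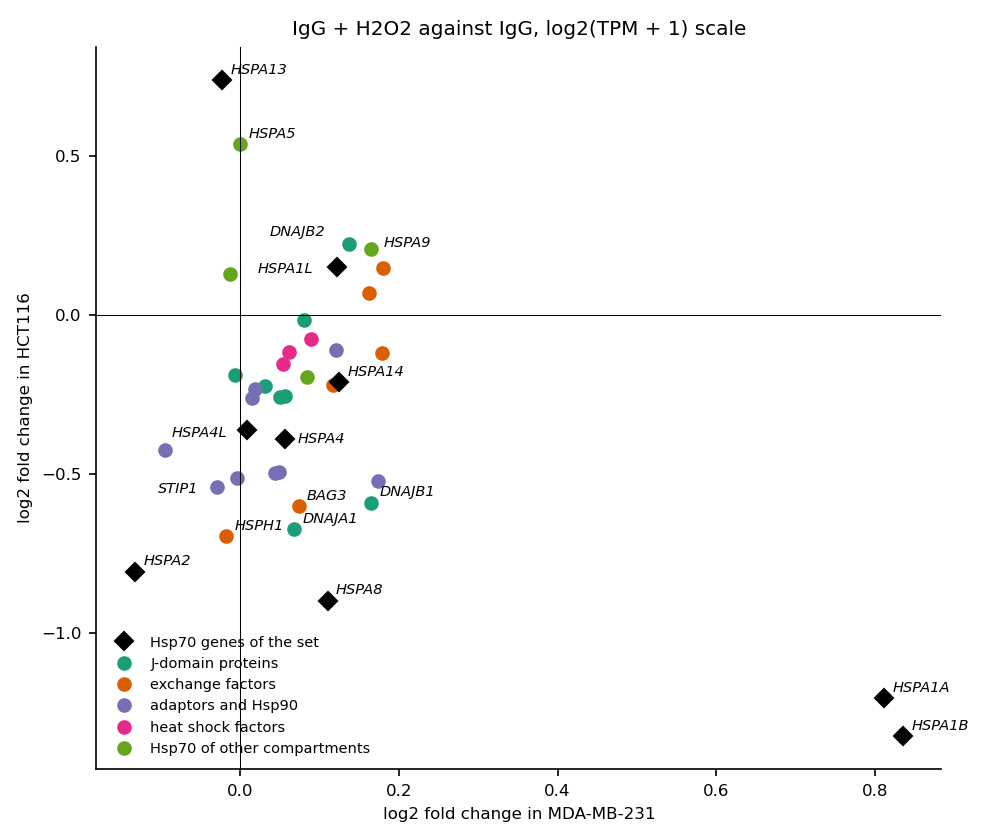
Log2 fold change of H2O2 against IgG in MDA-MB-231 (x axis) and HCT116 (y axis), on the log2(TPM + 1) scale, for the Hsp70 genes other than HSPA6 (diamonds) and the 30 listed genes (circles, coloured by list). The further Hsp70 genes are labelled as of other compartments. HSPA1A and HSPA1B stand alone at the lower right, near 0.8 in MDA-MB-231 and below -1 in HCT116, and HSPA13 lies at the top.

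The genes whose pattern across the 12 libraries was most like that of HSPA8, after the mean of each line was removed, were DNAJA1 (Pearson r 0.992), PRAME (0.990), FKBP4 (0.989), SNORA20 (0.987) and HSPH1 (0.982). They were the highest of 10564 genes with a mean TPM of at least 5. For HSPA1A plus HSPA1B the 5 most alike were RNF25 (0.963), C16orf55 (0.960), SF3B4 (0.959), MYD88 (0.958) and DEDD2 (0.958). These are descriptions over libraries that share lines and treatments, and they carry no test. Among the 5 most like HSPA8, 3 are on the lists read above: DNAJA1, FKBP4 and HSPH1. Those lists were chosen with earlier results of these data known, so the overlap supports nothing on its own.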

How the data were processed

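The authors deposited TPM per gene symbol in 1 table of 12 libraries. Tools listed in the submitters' processing notes are STAR, RSEM and bcl2fastq 2.20, with build hg19. Versions of STAR and RSEM, like the annotation, were not given in the sources used here. All columns were matched to samples by the labels (0 unmatched). Here log2(TPM + 1) was fitted with limma 3.58.1 (R 4.3.3), variance trend, two-sided, on 6 group means (6 residual degrees of freedom, prior 4.63), with 9 comparisons and Benjamini-Hochberg adjustment over 13956 genes. HSPA1A and HSPA1B were summed in a second fit. The fit was tested on simulated data. Depth is unknown, so no counting interval is given.

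Named genes were all members, their sum, up to 2 genes of smallest p per partner list and the 5 genes most alike in pattern; DNAJB2 in MDA-MB-231 also falls under this. Members and lists were chosen with earlier results of these data known. Alternatives were a pseudocount of 0.1, a mean TPM of at least 5, no filter, other scalings, a replicate block, each line alone, and each library left out. Upstream sequences came from RefSeq (GRCh38.p14), transcripts from GENCODE 29, with the longest open reading frame taken as coding, aligned in Biopython 1.88. Plots used Python 3.11.15 and matplotlib 3.10.9.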

Additional observations from a re-analysis of the deposited data

Results flagged for a closer look

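The H2O2 change differed between the lines, by limma's test of the difference itself (HCT116 minus MDA-MB-231, log2 scale), for the genes below and for the sum of the near-identical pair. The values were -2.15 for HSPA1A plus HSPA1B, -2.16 for HSPA1B, -2.01 for HSPA1A, -1.27 for HSPA6, -1.01 for HSPA8, -0.67 for HSPA2, -0.44 for HSPA4, -0.37 for HSPA4L, -0.34 for HSPA14 and 0.76 for HSPA13. HSPA6 was listed at or near 0 in HCT116 and passed the filter only through exposed MDA-MB-231 libraries, so its value supports nothing on its own. Line and growth medium cannot be told apart in any of these.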

How the results depend on the processing

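The alternatives were followed for the called changes of single genes, the counts of called genes and the HSPA1A plus HSPA1B results. None reversed the direction of these changes. Changes of single genes that were not called were not followed, and small ones may change sign. The HSPA1A plus HSPA1B results kept their direction and side of the threshold under every alternative run, with 1 library left out included. The counts of called genes changed under some alternatives, and comparisons with no call kept none. HSPA14 lost its H2O2, antibody with H2O2 and line-difference calls in several fits. HSPA4L lost its line-difference call in some, as given with their results. A mean TPM of at least 5 removed HSPA6, HSPA1L and HSPA2 from testing, and their calls with them. With 1 library left out, the sum's H2O2 change ranged from 0.76 to 0.90 in MDA-MB-231 and from -1.41 to -1.24 in HCT116, and 7 to 8 genes of the set were called in HCT116, and HSPA1A and HSPA1B in MDA-MB-231; the lone library was assumed to vary like the other groups. Groups share replicate numbers that no label ties to a batch, and deviations of same-numbered libraries correlated at only -0.127 to 0.164, so the numbers were not treated as a pairing. With a replicate block the sum's H2O2 change was 0.83 in MDA-MB-231 (limma adjusted p 0.000344) and -1.32 in HCT116 (1.78e-06), and the block changed no call of the 10 genes. Low levels limit HSPA6, HSPA1L and HSPA2, and the unknown depth leaves their counting error unmeasured.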
